A study of Mus musculus with 6 samples.

Results

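This account covers the genes for the alpha and beta tubulin isotypes that were measured in activated CD8 T cells labelled WT or Utx KO. The 10 members, of 25655 gene identifiers in each table, are Tuba1a, Tuba1b, Tuba1c, Tuba4a and Tuba8 for alpha tubulin and Tubb2a, Tubb2b, Tubb4b, Tubb5 and Tubb6 for beta tubulin. They were chosen by gene family with their values in these same 6 libraries in view, including each isotype's share of the alpha or beta sum in WT and Utx KO. Their differences between genotypes are therefore given as a description, with no p-value for any isotype. The isotypes did enter the fit across all genes, and how many passed its threshold is given only as counts from which nothing is read. The labels give female C57BL/6 mice as the source of splenic CD8 T cells, either WT or carrying a knockout of Utx, the histone H3K27 demethylase gene also named Kdm6a. How the gene was deleted, in which cells, and the animals' age: none of these is given in the sources used here. Naive cells (low CD44, high CD62L) of both genotypes were stimulated for 2 days on plate-bound anti-TCR-β (3 µg/ml) together with anti-CD28 at 1 µg/ml, in medium with 10 ng/ml IL-2, and then grew for 3 more days in IL-2 alone. Each genotype has 3 biological replicates, read at day 5 with a kit that counts the 3' ends of polyadenylated transcripts.

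Microtubules are hollow polymers of alpha and beta tubulin dimers, and mammals carry several genes for each subunit. The encoded isotypes share most of their sequence and differ most in the acidic C-terminal tail, which lies on the outside of the microtubule and is the site of many modifications. In most alpha isotypes the tail ends in a gene-encoded tyrosine that a carboxypeptidase removes and tubulin tyrosine ligase puts back. Cells also hold tubulin RNA in check through free dimers: the factor TTC5 reads the first residues of a newly made tubulin chain and directs decay of its message. In a T cell, microtubules build the spindle during division and carry lytic granules to the contact with a target cell.

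The coding ends of 3 alpha isotypes, those that were lower in Utx KO, are shown because the tail sets the isotypes apart. Each line gives the last 48 coding bases of the main GENCODE M21 (GRCm38) transcript, 5′ to 3′ and with the stop codon, and the codon before the stop is in capitals.
Tuba1c: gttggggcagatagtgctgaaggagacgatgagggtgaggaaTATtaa
Tuba4a: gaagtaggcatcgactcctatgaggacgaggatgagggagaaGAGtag
Tuba8: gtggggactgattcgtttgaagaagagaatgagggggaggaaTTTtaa
In Tuba1c this codon specifies tyrosine, as it does in Tuba1a and Tuba1b. Tuba4a ends instead in a glutamate codon and Tuba8 in a phenylalanine codon. Tuba1a and Tuba1b are 98.3% identical over their coding sequence. Tuba1c is 97.9% identical to Tuba1b over the coding sequence but only 59.3% identical over the tail bases. Tuba4a (85.2%) and Tuba8 (79.6%) are the more distant relatives of Tuba1b over the coding sequence.

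The same stretch is shown for 4 of the 5 beta isotypes, again with the codon before the stop in capitals.
Tubb5: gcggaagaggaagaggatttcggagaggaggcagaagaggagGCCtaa
Tubb4b: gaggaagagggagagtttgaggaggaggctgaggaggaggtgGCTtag
Tubb2b: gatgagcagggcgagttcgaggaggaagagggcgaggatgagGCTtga
Tubb2a: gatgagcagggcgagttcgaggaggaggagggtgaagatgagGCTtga
All 4 end in an alanine codon. Tubb2a and Tubb2b are the closest beta pair, with 96.5% identity over the coding sequence and 93.8% over the last 48 bases. Identity between the other beta pairs over the coding sequence lies between 80.3% (Tubb5 and Tubb6) and 84.6% (Tubb2a and Tubb5). At the other end of the message, the 12 bases from the start codon, with the codons after it in capitals, read atgCGTGAGTGC in Tuba1c and atgAGGGAAATC in Tubb5, which is the stretch that the autoregulation of tubulin RNA depends on.

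Because the libraries read 3' ends, near-identical coding sequences matter less than the sequence behind the stop codon. In the last 300 nt of each member, none of the 50-nt pieces that lie wholly in the 3' untranslated region occurs in another gene's annotated transcripts. Where that region is short, pieces of the last 300 nt reach into the coding part and are shared with other genes: 43.0% for Tuba1c, 34.7% for Tuba1b, 30.3% for Tubb4b, 21.5% for Tuba1a and 16.3% for Tubb2a. To that extent their values could mix with those of the copies, or lack reads that were dropped. The handling of reads with several matches is not given in the sources used here. The share is 1.79% for Tuba4a and 0 for Tuba8, Tubb2b, Tubb5 and Tubb6. Exons of Tuba4a overlap Stk16 on the opposite strand, but Stk16 stood at 25.0 to 36.4 CPM, far below Tuba4a. Tubb4b overlaps Fam166a (1.64 to 5.14 CPM) in the same way, and Tuba8 overlaps a gene model that has no row in the tables. On the same strand, exons of both Tuba1a and Tuba1b overlap the gene model Gm49450, listed at 0 in all libraries. Tuba1b also overlaps Gm41396 on the opposite strand, for which no values are given. How reads in shared exons were counted is not given in the sources used here.

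Recovered totals were 1619085 to 2529113 reads per library, of which the 10 isotypes held 0.729% to 0.764%. A gene with no read could still lie at 1.19 to 1.85 CPM (3 reads), and such limits and the intervals below cover counting error only. Kdm6a stood at 44.3, 49.3 and 53.6 CPM for WT, compared with 27.8, 39.4 and 31.5 CPM for Utx KO (limma adjusted p = 0.0123). The call was lost with DESeq2 (0.0974) and on leaving out WT 2 (0.0521), WT 3 (0.0710) or Utx KO 1 (0.0526), and a 3' tag outside the deleted part would check nothing. The summed level of 5 CD8 T-cell markers was 875 to 947 CPM in WT and 1054 to 1068 CPM in Utx KO, with Trac, the T-cell receptor alpha constant gene, listed at 0 in all 6 libraries. The sum of 5 B-cell markers was 2.76 to 5.47 CPM in WT and 0.571 to 1.85 CPM in Utx KO, with Ms4a1, Cd79a and Pax5 listed at 0 throughout. Both sums were separated between the genotypes, and their part in the tubulin values was not tested. The other marker sums overlapped. For 3 CD4 T-cell markers the sum was 6.79 to 10.4 CPM over all libraries, nearly all of it Foxp3, with Cd4 at 0. For 7 myeloid markers it was at most 3.71 CPM (5 at 0). The sum was at most 1.85 CPM for 3 natural killer cell markers (Ncr1 at 0) and 0.618 CPM for 4 erythroid markers (3 at 0). Of 6 platelet markers, at most 1.24 CPM in sum, 5 were listed at 0, including Tubb1, the beta tubulin of platelets. The main GENCODE M21 transcript of Tubb1 has no annotated 3' untranslated region, so tags beyond its stop codon could have gone uncounted.

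Total tubulin RNA differed by less than the spread between replicates, while its make-up differed by more. The 10 isotypes summed to 7426 ± 121 CPM in the WT libraries, against 7521 ± 104 CPM in those of Utx KO (SD, n = 3), a difference of 1.29% of the WT mean, and the libraries overlapped. The alpha sum was lower in Utx KO and the beta sum higher. Alpha isotypes summed to 4849, 5057 and 4949 CPM for WT, compared with 4750, 4601 and 4603 CPM for Utx KO, replicates given in the order 1, 2, 3 here and throughout. The groups did not overlap, and the mean changed by -6.07% from WT to Utx KO. Beta isotypes summed to 2438, 2434 and 2551 CPM for WT, compared with 2891, 2872 and 2848 CPM for Utx KO. Here too each Utx KO library lay outside the WT range, on the upper side, with a mean higher by 16.0%. The ratio of alpha to beta tags was 1.99, 2.08 and 1.94 in WT and 1.64, 1.60 and 1.62 in Utx KO. In such bulk samples, fewer cells making an RNA and less of it per cell cannot be told apart.

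**Figure D1:**
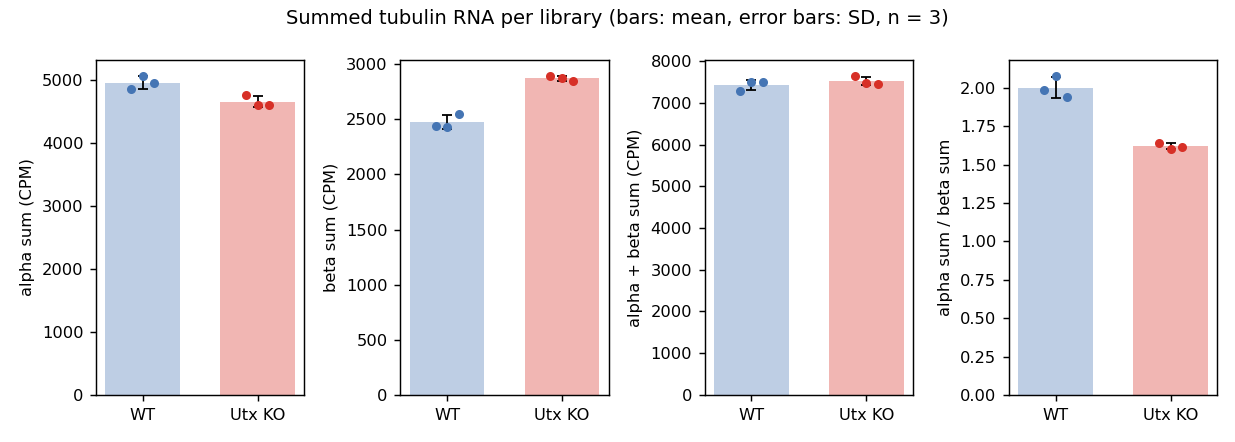
Summed CPM of the 5 alpha isotypes, the 5 beta isotypes and all 10, and the ratio of the alpha to the beta sum, for WT (blue) and Utx KO (red); bars are means, error bars SD (n = 3) and points single libraries. The 10-isotype sums overlap, while the alpha sums are lower and the beta sums higher in Utx KO.

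Of the alpha isotypes, Tuba4a, Tuba1c and Tuba8 were lower in Utx KO, and the most abundant, Tuba1b, was not. Levels are in CPM, the tags of a gene scaled to a common library total. Since a 3' end kit counts about 1 tag per transcript whatever its length, CPM were also compared between genes. Comparisons of levels, shares and ratios between isotypes carry the limit given above for shared 3' end pieces. Differences are on the log2(CPM + 1) scale, Utx KO minus WT.

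Tuba4a, on chromosome 1 (75214228-75219865, minus strand, GRCm38), encodes the alpha tubulin whose chain is made without the final tyrosine. Its level was 544, 570 and 559 CPM in the WT libraries, against 420, 406 and 353 CPM in those of Utx KO. All 3 Utx KO libraries lay below the lowest WT library, and Utx KO replicate 3 was the lowest. The mean went from 557 ± 13.0 to 393 ± 35.1 CPM (SD, n = 3), a log2 difference of -0.51 (SE 0.06), a change of -29.5% in the mean. As a share of alpha tags, Tuba4a made up 11.2%, 11.3% and 11.3% in WT and 8.84%, 8.83% and 7.68% in Utx KO. The mean share changed by -2.81 percentage points, the largest decrease of any alpha isotype.

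Tuba1c (chromosome 15, 99029891-99038110, plus strand) is a close relative of Tuba1a and Tuba1b and lies near them on the chromosome. It stood at 880, 945 and 932 CPM for WT, compared with 761, 771 and 778 CPM for Utx KO. The groups did not overlap, and the Utx KO libraries lay within a narrow span. The means were 918.9 ± 34.1 and 770.0 ± 8.14 CPM, a log2 difference of -0.25 (SE 0.05). Its share of alpha tags was 18.6% ± 0.355 in WT and 16.6% ± 0.465 in Utx KO (SD, n = 3).

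Tuba8 (chromosome 6, 121210696-121226854, plus strand) encodes the most divergent alpha isotype of the set, known from muscle, testis and brain. It was the rarest member, at 11.9, 9.68 and 9.85 CPM in the WT libraries, against 1.59, 2.28 and 3.09 CPM in those of Utx KO. These values rest on 30, 21 and 18 reads in WT and 4, 4 and 5 reads in Utx KO. Every Utx KO library was below every WT library, and the WT mean was 4.51 times the Utx KO mean. The log2 difference of -1.81 (SE 0.32) understates the change of so low a gene: it was -1.08 with a pseudocount of 5 and -2.17 with a pseudocount of 0.1. Tuba8 made up 0.212% ± 0.0288 of alpha tags in WT and 0.0501% ± 0.0168 in Utx KO (SD, n = 3). The exact (Clopper-Pearson) 95% binomial intervals of single libraries ran from 0.118% to 0.349% in WT and from 0.00911% to 0.157% in Utx KO, so those of the nearest libraries of the genotypes overlapped.

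Tuba1b (chromosome 15, 98931425-98934565, minus strand), the main alpha tubulin of dividing cells, supplied most alpha tags. It stood at 3061.9, 3176.8 and 3115.4 CPM for WT, compared with 3228.0, 3099.7 and 3123.4 CPM for Utx KO. The groups overlapped, with a log2 difference of 0.01 (SE 0.03) that turned to -0.0029 without Utx KO replicate 1. Its share of alpha tags was nonetheless higher in every Utx KO library, at 68.0%, 67.4% and 67.9% against 63.1%, 62.8% and 63.0%. A share depends on the other isotypes too, and here the sum of alpha tags was lower while the levels of Tuba1b overlapped.

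Tuba1a (chromosome 15, 98949837-98953703, minus strand), the alpha isotype best known from developing neurons, overlapped between the genotypes. It stood at 351.1, 356.2 and 333.2 CPM in the WT libraries, against 338.8, 321.6 and 345.3 CPM in those of Utx KO, a log2 difference of -0.05 (SE 0.06). On leaving out single libraries it ran from -0.02 (without Utx KO replicate 2) to -0.08 (without WT replicate 3). Its share was 7.01% ± 0.256 in WT and 7.21% ± 0.264 in Utx KO (SD, n = 3), a gap smaller than either SD.

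Of the beta isotypes, Tubb5 and Tubb2b were higher in Utx KO, and Tubb2a, Tubb4b and Tubb6 overlapped. Tubb5 (chromosome 17, 35833921-35838306, minus strand) is the main beta tubulin of proliferating and immune cells. It stood at 1981, 1965 and 2109 CPM for WT, compared with 2359, 2407 and 2380 CPM for Utx KO. The lowest Utx KO library lay above the highest WT library, and the Utx KO mean was 1.18 times the WT mean, a log2 difference of 0.24 (SE 0.04). In scaled values, which are not tag numbers, the mean of this one gene rose by more than the mean alpha sum fell (-300 CPM). Tubb5 averaged 2018 ± 79.0 CPM in the WT libraries, against 2382 ± 24.3 CPM in those of Utx KO (SD, n = 3). Its share of beta tags overlapped all the same, at 81.2%, 80.7% and 82.7% in WT and 81.6%, 83.8% and 83.6% in Utx KO.

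Tubb2b (chromosome 13, 34126748-34130466, minus strand), an isotype known chiefly from neurons, had the largest relative increase among the members. It stood at 53.8, 41.0 and 46.0 CPM for WT, compared with 112, 106 and 92.6 CPM for Utx KO. The groups were far apart: the Utx KO mean was 2.21 times the WT mean, a log2 difference of 1.13 (SE 0.12). Its share of beta tags was 2.21%, 1.68% and 1.80% in WT and 3.89%, 3.68% and 3.25% in Utx KO. The binomial intervals of the WT libraries reached at most 2.60% and those of the Utx KO libraries began at 2.76%. The nearly identical Tubb2a (chromosome 13, 34074274-34078007, minus strand) did not follow. It stood at 24.1, 15.2 and 15.3 CPM in the WT libraries, against 15.1, 21.1 and 17.3 CPM in those of Utx KO. WT replicate 1 was the highest of the 6 libraries, and the log2 difference of -0.01 (SE 0.22) became 0.20 without it. The ratio of Tubb2b to Tubb2a was 2.64 ± 0.388 in WT and 5.93 ± 1.32 in Utx KO (SD, n = 3), with no overlap between the groups.

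Tubb4b (chromosome 2, 25222160-25224702, minus strand), a broadly made isotype that is also prominent in cilia, stood at 352, 380 and 346 CPM for WT, compared with 370, 314 and 329 CPM for Utx KO. The groups overlapped, with a log2 difference of -0.09 (SE 0.07) that ran from -0.16 without Utx KO replicate 1 to -0.04 without Utx KO replicate 2. Its share of beta tags did not overlap, at 14.4%, 15.6% and 13.6% in WT and 12.8%, 10.9% and 11.6% in Utx KO. The share is taken of a sum that Tubb5 dominates, and the ratio of Tubb5 to Tubb4b was 5.63 ± 0.462 in WT and 7.10 ± 0.660 in Utx KO (SD, n = 3).

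Tubb6 (chromosome 18, 67390717-67402749, plus strand), a minor isotype in most cells, stood at 27.7, 32.7 and 35.0 CPM in the WT libraries, against 34.6, 24.6 and 28.4 CPM in those of Utx KO. The groups overlapped, with a log2 difference of -0.13 (SE 0.17), and so did its shares of beta tags, 1.28% ± 0.130 and 1.02% ± 0.171 (SD, n = 3). Single libraries moved that difference widely, from -0.25 without Utx KO replicate 1 to -0.01 without Utx KO replicate 2.

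**Figure D2:**
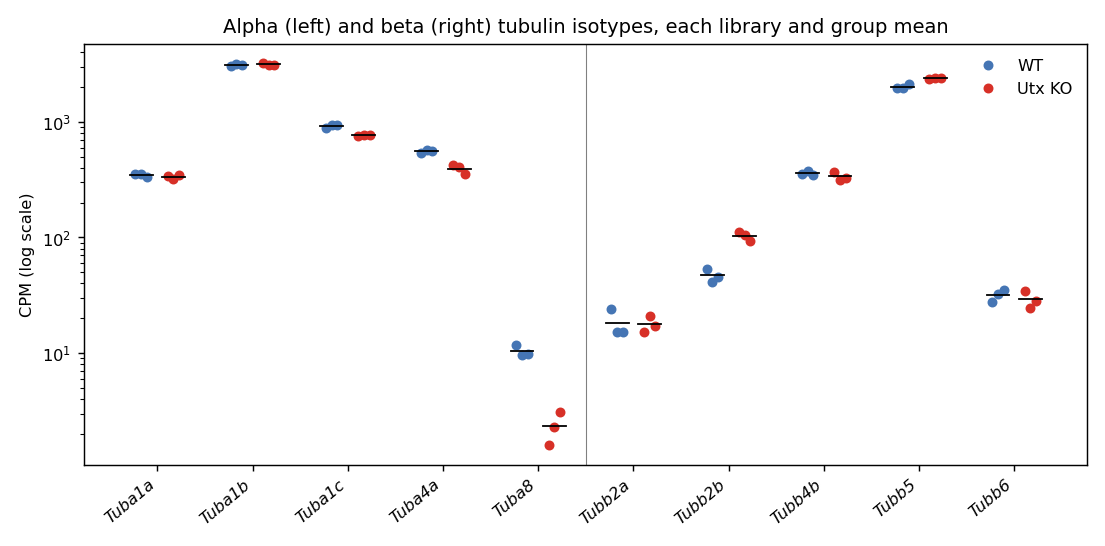
Level of each isotype in CPM on a log axis, for WT (blue) and Utx KO (red); points are single libraries and horizontal marks are means of 3. Tuba1c, Tuba4a and Tuba8 lie lower, and Tubb5 and Tubb2b higher, in all Utx KO libraries, while the other isotypes overlap.

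**Figure D3:**
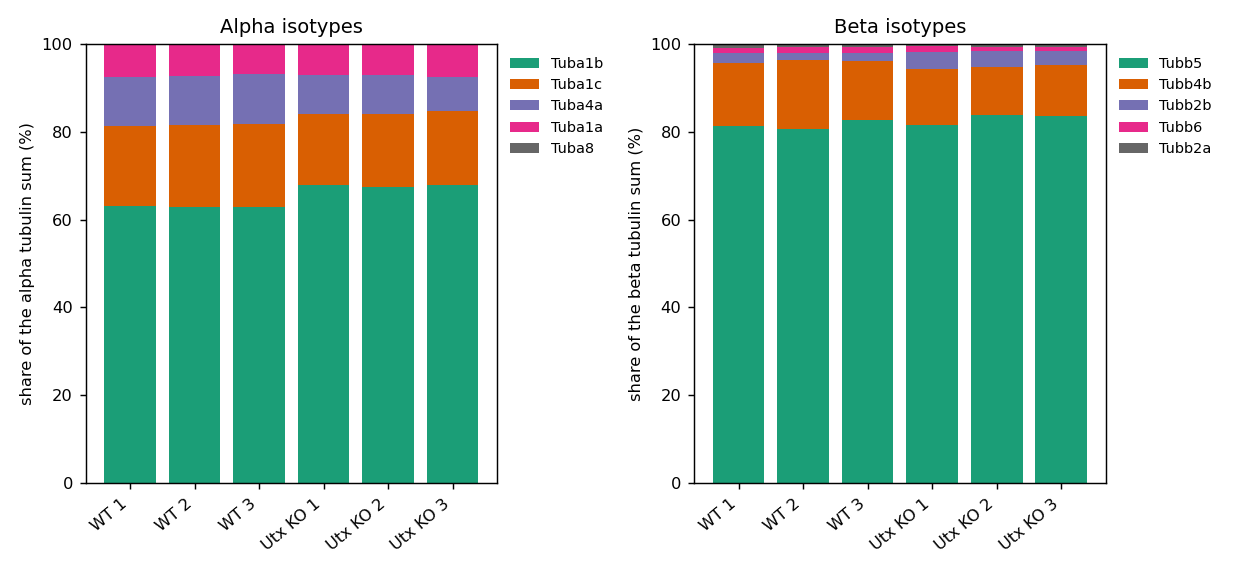
Stacked bars of the share of each isotype, in percent, in the alpha sum (left) and the beta sum (right) of each library, 3 WT and then 3 Utx KO. The green Tuba1b block is taller in every Utx KO library and the Tuba1c and Tuba4a blocks are shorter, while the Tubb2b block is thicker and the Tubb5 blocks overlap in height between the genotypes.

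The order of the levels was the same in both genotypes: Tuba1b, Tubb5, Tuba1c, Tuba4a, Tubb4b, Tuba1a, Tubb2b, Tubb6, Tubb2a and Tuba8. In WT, the neighbours Tubb4b and Tuba1a overlapped across libraries, and no other neighbours did. In Utx KO, where Tuba4a was lower, Tuba4a overlapped Tubb4b as well.

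Grouped by the codon before the stop, alpha tags from the 3 tyrosine-ending genes made up 88.5% of the alpha sum in each WT library. In Utx KO they made up 91.1%, 91.1% and 92.3%. The rest came from Tuba4a and Tuba8, the isotypes whose chains lack the encoded tyrosine. These are shares of RNA, and the state of the protein was not measured.

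The promoters of Tuba4a and Tuba8 are printed because these are the alpha isotypes outside the tyrosine-ending group and both were lower in Utx KO. They cover 250 bases before to 50 bases after the start in RefSeq (GRCm38.p6), 5′ to 3′ on the gene's strand, and capitals mark matches to promoter motifs on either strand. The motifs searched were TATAAA, found near the start of some genes, then the sequence CCAAT, bound by the factor NF-Y, and lastly the sequence GGGCGG, bound by factors of the Sp family. The first is chr1:75219245-75219544 on the minus strand and the second chr6:121210484-121210783 on the plus strand.
Tuba4a: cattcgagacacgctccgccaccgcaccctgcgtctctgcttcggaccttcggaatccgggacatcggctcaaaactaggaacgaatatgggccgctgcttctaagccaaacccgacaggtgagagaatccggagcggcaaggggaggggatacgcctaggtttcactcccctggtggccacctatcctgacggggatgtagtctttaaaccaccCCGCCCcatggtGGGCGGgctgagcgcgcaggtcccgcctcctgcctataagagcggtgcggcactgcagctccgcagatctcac
Tuba8: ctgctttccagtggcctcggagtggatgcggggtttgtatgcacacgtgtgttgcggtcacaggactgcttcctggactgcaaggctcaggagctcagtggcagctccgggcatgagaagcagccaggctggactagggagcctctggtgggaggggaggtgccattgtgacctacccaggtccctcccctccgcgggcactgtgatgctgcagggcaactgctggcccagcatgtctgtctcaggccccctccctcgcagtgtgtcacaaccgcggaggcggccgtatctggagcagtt
The Tuba4a window holds 2 matches to GGGCGG and 24 CG dinucleotides. It lies wholly within the GENCODE span of the gene given above, which reaches further upstream, and the bases before that GENCODE end were not searched. The Tuba8 window holds none of the 3 motifs and 12 CG dinucleotides. Both exceed the median of 7 CG dinucleotides over all 32851 promoters in the table. Of those promoters 35.7% hold GGGCGG, 37.4% hold CCAAT and 13.6% hold TATAAA. Of the 8 members with an entry, the window of Tuba1b has the most CG dinucleotides (39) and that of Tuba1c the fewest (7), and the window of Tubb5 has 2 matches each to CCAAT and GGGCGG.

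In the fit across all genes (limma, Benjamini-Hochberg adjusted p under 0.05), 5 of the 10 isotypes were called, and in 5 the groups did not overlap. Over all 10590 genes tested, 10.8% were called and in 26.5% the groups did not overlap. Higher in Utx KO were 2 isotypes, against 5.28% of all genes, and lower were 3, against 5.51%. The isotypes were chosen with this contrast in view, so nothing is read from these counts. The median log2 difference was -0.07 over the isotypes and 0.01 over all genes tested. The labels call the replicates biological but name no separate animals or cultures, so p-values measure only the spread between these libraries.

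Among the 6 remaining alpha and beta tubulin genes, only Tubb3 was tested. Tuba3a, Tuba3b, Tubal3 and Tubb1 were listed at 0 in all 6 libraries, and Tubb4a had 11 reads in WT and 3 in Utx KO. Tubb3 (chromosome 8, 123411424-123422015, plus strand), the beta tubulin used as a marker of neurons, stood at 2.37, 5.07 and 2.19 CPM for WT, compared with 10.7, 9.14 and 14.8 CPM for Utx KO. The groups did not overlap, and Tubb3 rose with a log2 difference of 1.62 (SE 0.33, limma adjusted p = 0.00141). The adjusted p lay between 0.00070 and 0.0170 over 13 alternatives, and the difference was 1.01 with a pseudocount of 5. The values rest on 21 reads in WT and 67 in Utx KO.

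Genes that fold, nucleate, modify or bind tubulin were read from the same fit. Of 119 tested genes in 10 lists, among them Tubb3, 6 rose and 5 fell, which is 9.24% against 10.8% of all genes, and their median log2 difference was 0.01. The lists were chosen with earlier results known, so their counts are a description.

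Of the 7 cofactors that fold and assemble the dimer, 2 rose and none fell. Arl2, the small GTPase that works with the cofactors, rose from 23.9 ± 4.17 to 40.9 ± 3.20 CPM (log2 difference 0.76, SE 0.16, limma adjusted p = 0.00233). Tbca, the cofactor that holds folded beta tubulin, rose from 388.7 ± 22.5 to 461.3 ± 22.3 CPM (0.25, adjusted p = 0.00764 by limma, 0.0552 without WT replicate 2). Of 15 subunits of the chaperonin CCT, of prefoldin and their partner, 1 rose and 1 fell. Pfdn1, a prefoldin subunit that hands new chains to the chaperonin, fell from 172.5 ± 3.33 to 132.2 ± 16.6 CPM (-0.39, limma adjusted p = 0.00442). Cct2, a chaperonin subunit, rose from 305.6 ± 15.6 to 358.3 ± 20.3 CPM (0.23, limma adjusted p = 0.0218). That call did not hold with DESeq2 (0.0971), nor on leaving out WT 2 (0.0969), WT 3 (0.0948) or Utx KO 3 (0.0998).

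No gene passed the limma test in 4 of the lists. For scale, 31 of the 119 tested genes over all lists had an unadjusted limma p under 0.05. Lists with a call held 7 of 15 (chaperonin and prefoldin), 2 of 7 (cofactors), 5 of 23 (dynamics regulators) and 4 of 20 (spindle). The transport motors held 6 of 22, and Tubb3 was the remaining gene. The share over all genes is not given here, so nothing is read from these unadjusted counts. Of the 4 genes of tubulin RNA autoregulation, none was called by limma, edgeR or DESeq2, and 2 had an unadjusted limma p under 0.05. Ttc5, the factor that reads the nascent chain, stood at 10.5 ± 2.02 CPM in the WT libraries, against 10.2 ± 1.93 CPM in those of Utx KO (limma adjusted p = 0.954). Of the 13 modifying enzymes tested, 2 had an unadjusted limma p under 0.05, edgeR called 1 and DESeq2 none. Ttl, the tyrosine ligase, stood at 12.2 ± 1.84 and 18.1 ± 3.12 CPM (limma adjusted p = 0.147). Of the 4 gamma, delta and epsilon tubulins and the 10 genes of the gamma-tubulin ring complex, which nucleates microtubules, 1 in each list had an unadjusted limma p under 0.05 and neither edgeR nor DESeq2 called any. Some settings added a call in these lists: Cnot11, a subunit of the deadenylase complex, passed without Utx KO replicate 1 (limma adjusted p = 0.0399) and Pcnt, a centrosome scaffold, without Utx KO replicate 2 (0.0499). Sirt2, a tubulin deacetylase, passed without Utx KO replicate 3 (0.0414), with at least 10 CPM required (0.0493) and by edgeR (0.0436). Ttc5, Ttl, Cnot11, Pcnt and Sirt2 lie outside the naming rule and were singled out after their values were seen.

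Of 23 tested regulators of microtubule dynamics, 1 fell and none rose. Map7d1, a microtubule-binding protein, fell from 88.2 ± 2.08 to 67.2 ± 2.83 CPM (-0.39, limma adjusted p = 0.0126). The call did not hold with DESeq2 (0.108), nor on leaving out WT 1 (0.0543) or WT 2 (0.062). Of 20 spindle motors and assembly factors, 1 fell and none rose. Cenpe, a kinetochore motor that moves chromosomes to the spindle equator, fell from 481 ± 24.5 to 409 ± 45.3 CPM (-0.24, limma adjusted p = 0.0247), a call lost on leaving out WT 1 (0.0843), WT 2 (0.118) or Utx KO 1 (0.134, with a log2 difference of -0.14).

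Of 22 transport motors and their partners, 2 rose and 2 fell, and each of the 4 calls was lost on leaving out single libraries. Kif5b, the conventional kinesin heavy chain, fell from 360 ± 41.6 to 297 ± 14.1 CPM (-0.27, limma adjusted p = 0.0167). Leaving out WT 1 gave an adjusted p of 0.143, WT 2 0.0838, Utx KO 2 0.0559 and Utx KO 3 0.0648. Dctn2, a subunit of the dynein partner dynactin, rose from 49.4 ± 5.12 to 67.8 ± 6.44 CPM (0.45, limma adjusted p = 0.0173). It was 0.0675 on leaving out WT 1, 0.0958 for WT 2 and 0.0753 for Utx KO 3, and 0.139 with DESeq2. Kif21b, a kinesin that limits microtubule growth in T cells, rose from 54.4 ± 3.43 to 72.9 ± 7.70 CPM (0.41, limma adjusted p = 0.0225). Here leaving out WT 1 gave 0.066, WT 2 0.107, Utx KO 2 0.128 and Utx KO 3 0.0522, and DESeq2 gave 0.186. Kif1b, a kinesin that carries organelles, fell from 32.9 ± 1.00 to 22.2 ± 2.00 CPM (-0.55, limma adjusted p = 0.0296). The values on leaving out WT 1, WT 2, WT 3 or Utx KO 2 were 0.0966, 0.108, 0.0631 and 0.107, and DESeq2 gave 0.245.

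**Figure D4:**
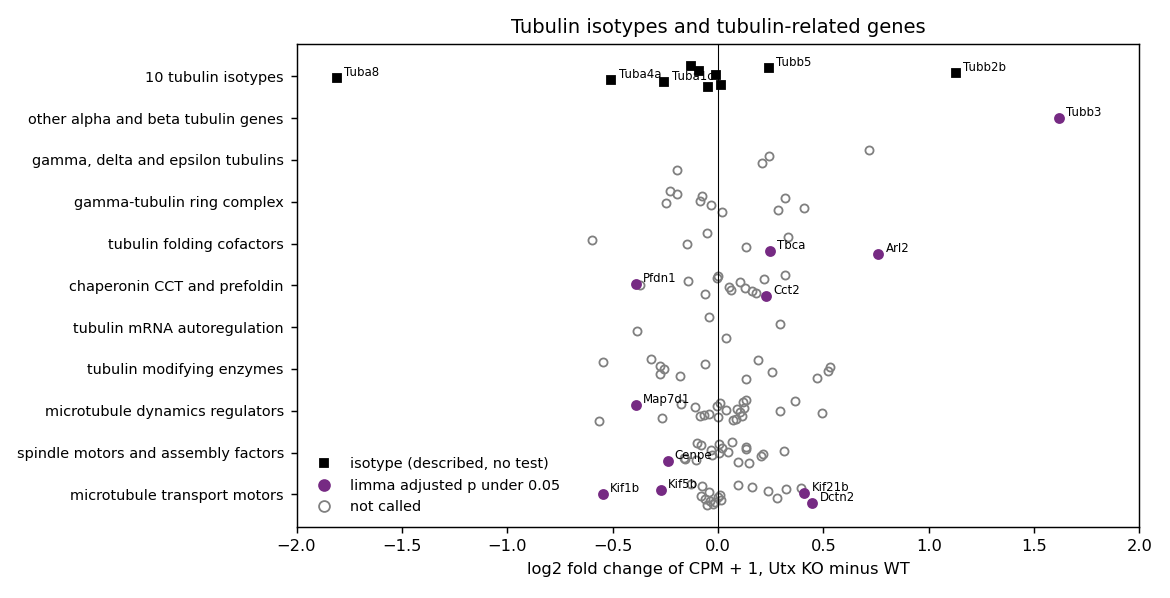
Log2 difference (Utx KO minus WT, log2(CPM + 1) scale) of each tested gene, by list, with the 10 isotypes as black squares. Called list genes are named. Isotypes are named where the groups did not overlap, as a description with no test. The list genes together have a median of 0.01, Tuba8 lies lowest and Tubb3 highest.

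The genes whose profiles lay nearest to the leading isotypes were found by Euclidean distance between log2(CPM + 1) values centred on their means, over 6 libraries and 3350 genes of at least 50 CPM. For Tuba1b they were Naca (distance 0.0270), Ywhae (0.0397) and Arpp19 (0.0480), and Naca, a subunit of the complex that binds nascent chains at the ribosome, ran from 426 to 454 CPM over all libraries. For Tubb5 they were Rps19 (0.0345), Drap1 (0.0466) and Sh3bgrl3 (0.0478). Rps19, a ribosomal protein gene, stood at 1467, 1488 and 1548 CPM for WT, compared with 1739, 1787 and 1764 CPM for Utx KO. Its groups did not overlap, which follows from choosing it by its nearness to Tubb5 over these same libraries.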

How the data were processed

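Polyadenylated RNA of 3 WT and 3 Utx KO libraries was read with a QuantSeq 3' kit from 500 ng of total RNA, per the labels' protocols. The authors deposited 1 CPM table per library, with Ensembl identifiers. The builds GRCm38 and mm10 are named in the submitters' processing notes, and no aligner, counter or strand setting is given in the sources used here. All values (100%, tolerance 0.001) were whole multiples of the value of 1 read, which gave back reads per library.

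Symbols were matched for 25600 of 25655 identifiers. Isotype shares are CPM over the alpha or beta sum. limma 3.58.1 (R 4.3.3) was fitted to log2(CPM + 1) with a mean-variance trend, over genes that reached 1 CPM in no fewer than 3 libraries, with genotype as the only term, two-sided, and Benjamini-Hochberg adjustment over all genes tested. The filter can admit a gene through 1 genotype alone, and all 10 isotypes passed it. Alternatives were edgeR 4.0.16 (quasi-likelihood) and DESeq2 1.42.0 on the recovered reads, TMM scaling, other pseudocounts and filters, a replicate block and leaving out each library. The limma fit with and without the block, edgeR and DESeq2 were each run on simulated counts with known changes as a check of the code. The members and lists were chosen with earlier results of these data known. Named are the 10 isotypes, the 6 other alpha and beta tubulin genes, Kdm6a, up to 4 called genes of each list with the lowest adjusted p, and the 3 nearest profiles to the highest alpha and beta isotype. Genes named outside this rule are marker genes, overlapping genes and those said to have been singled out (Cct7 and Camsap1 too). Coding ends and gene positions come from GENCODE M21, promoters from RefSeq. The coding ends of Tuba1a and Tuba1b are not reported here.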

Additional observations from a re-analysis of the deposited data

How the results depend on the processing

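Under the alternatives, each of the 80 share values moved by less than the replicate SD pooled over both genotypes. With 3 libraries per genotype, leaving out a single library cannot move a difference by that much, so for those values the outcome was fixed. Taking all alpha genes into the sum changed no alpha share, since those added were listed at 0. The SD within WT alone can be far smaller: Tuba4a shifted from -2.81 to -2.42 points without Utx KO replicate 3, against an SD of 0.0384 in WT and 0.668 in Utx KO. Without each replicate in turn, the difference in share was 4.64 to 4.94 points for Tuba1b, -3.0 to -2.4 for Tuba4a, -2.19 to -1.73 for Tuba1c, 1.57 to 1.89 for Tubb2b, -3.29 to -2.24 for Tubb4b and -0.185 to 0.00908, turning sign, for Tubb2a. The log2 ratio of Utx KO to WT stayed between -0.11 and -0.07 for the alpha sum and between 0.20 and 0.24 for the beta sum. Of 139 isotype differences under the alternatives, 135 moved by less than the pooled SD, and the other 4 were Tuba8 with pseudocounts of 0.1 (-2.17) and 5 (-1.08), edgeR (-2.22) and DESeq2 (-2.23). On leaving out single libraries this outcome too was fixed. The other filters and the replicate block returned the same difference for every isotype they tested, so the 135 are no measure of stability. Tubb2a turned sign on leaving out WT 1 (0.20), Utx KO 1 (0.10) or Utx KO 3 (0.01), and Tuba1b without Utx KO replicate 1 (-0.0029). Over 14 alternative fits, 4 to 5 isotypes were called, Tuba8 not being tested with at least 10 CPM required. Over all genes, these fits called from 552 (DESeq2) to 1169 (pseudocount of 5). The isotypes were chosen with this contrast in view, so nothing is read from these counts either.

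Over all genes, limma called 1142, edgeR 1106 and DESeq2 552, and leaving out single libraries gave 747 (without WT replicate 2) to 1056. Of the list genes, limma called 11, edgeR 13 and DESeq2 6, and leaving out single libraries gave 3 (without WT replicate 2) to 11, with 5 without WT replicate 1. Some settings added Cct7 (0.0392 without WT replicate 3) or Camsap1 (0.0389 by edgeR, 0.0355 without WT replicate 3 and 0.0183 without Utx KO replicate 3) to those called. The cause was not tested. With the replicate block, 1065 genes and 11 list genes were called. Same-numbered libraries did not deviate together (correlations 0.00602, -0.00272 and -0.00963 over 10590 genes), so the numbers are not taken as pairs. Adding tubulin pseudogene rows was not run, since the tables given here hold 0 such rows. Few reads limit Tuba8, Tubb2a, Tubb6 and Tubb3.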
